A study of Mus musculus with 12 samples.

Results

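The 10 genes described here are immediate early and AP-1 genes: Fos, Fosb, Fosl1, Fosl2, Jun, Junb, Jund, Egr1, Atf3 and Ier3. They were taken by name from the 24906 genes of each FPKM table, and all 10 were found and passed the filter on low values in both tables. RNA-Seq was performed on 12 libraries of organoids from mouse small intestinal tumors, in which Smad4 was deleted and a BRAFV600E/+ allele was activated by Villin-CreERT2, a Cre recombinase restricted to the intestinal epithelium. All libraries, controls included, carried the genotype label Smad4KO;BRAFV600E/+;pINDUCER-SMAD4, where pINDUCER-SMAD4 is a lentivirus whose SMAD4 gene is switched on by doxycycline (dox). Organoids were left untreated or given 4 µg/mL dox for 48 h, either in BME, a basement membrane extract for 3D growth, or on tissue culture plastic without it. In BME there were untreated libraries of lines 682, 700 and 889, dox libraries of lines 700 and 889, and 1 library of line 682 labelled dox with the word mock, which was kept with the controls as the study counts it. Whether that library carried pINDUCER-SMAD4, as its genotype label says, or a mock plasmid is not clear from the sources used here, so its pair shows dox with either. The plastic libraries were an untreated and a dox library of each of lines 560, 700 and 889. The age of the animals is not given in the labels.

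Immediate early genes are transcribed within minutes of a stimulus such as a growth factor, serum or stress, without new protein synthesis, and their mRNAs are usually short-lived. Signals through RAF, MEK and ERK reach them through serum response factor and its ETS partners, and an activated BRAF feeds into this route. FOS and JUN proteins pair to form AP-1, a dimer that binds a short palindromic DNA element and that is known for its part in proliferation, migration and matrix remodelling. SMAD proteins, of which SMAD4 is the shared member in TGFβ and BMP signalling, can bind DNA beside AP-1.

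The label check came first. Smad4 itself was at 6.23 to 8.88 FPKM in untreated BME libraries, at 17.2 and 27.3 FPKM with dox and at 10.3 FPKM in the mock library of line 682. On plastic it was at 1.54 to 4.76 FPKM untreated and 18.1 to 73.6 FPKM with dox, so every dox library stood above its untreated partner. The FPKM of Smad4 does not divide the deleted gene from the construct. The 8 epithelial markers (such as Epcam, Krt8 and Vil1) were above 0 in every library. In BME they summed to 4231 to 5229 FPKM untreated, 4884 FPKM in the mock library and 7899 and 9849 FPKM with dox, and on plastic to 13255 to 14542 FPKM untreated and 11896 to 17386 FPKM with dox. Their part in the BME results was not tested. Markers of fibroblasts summed to at most 5.79 FPKM and those of endothelium to at most 3.65 FPKM, and the immune markers summed to 3.69 to 39.3 FPKM, with Cd68 the highest of them. On plastic Cd68, a macrophage marker, was at 15.1, 4.40 and 2.70 FPKM untreated and 12.5, 3.58 and 38.7 FPKM with dox in lines 560, 700 and 889. It was thus higher with dox in the line 889 pair, the pair with the largest changes of Egr1, Atf3 and Mmp13, and its part in those changes was not tested. Ptprc, which marks all leukocytes, was at most 0.0360 FPKM in the plastic libraries. Depth, estimated from the steps between low FPKM values, was about 12700000 to 15670000 fragments for a BME library and 15350000 to 20230000 for a plastic one. The untreated plastic library of line 560 stood apart: its genes with transcripts over 2 times the median length lay 0.50 below the table mean (median, log2) and those under 0.5 times lay 0.40 above, against −0.092 to 0.18 and −0.20 to 0.00068 in the other plastic libraries. In bulk RNA a lower level cannot be divided into fewer cells of a type and less RNA per cell.

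The promoter sequences of Fos, Junb and Jund are shown because these genes separated the dox from the control libraries on plastic, Fos and Junb being higher in every dox library and Jund lower. Each run is the 250 bases before the gene's start in RefSeq (GRCm38.p6), read 5′ to 3′ on the gene's own strand, and capitals mark TGACG, the core shared by cyclic AMP response elements.
Fos (chr12:85473640-85473889, plus strand): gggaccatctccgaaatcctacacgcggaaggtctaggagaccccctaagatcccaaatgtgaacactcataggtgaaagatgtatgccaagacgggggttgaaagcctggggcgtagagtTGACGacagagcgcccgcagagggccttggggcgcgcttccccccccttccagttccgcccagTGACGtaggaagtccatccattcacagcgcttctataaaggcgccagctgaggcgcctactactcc
Junb (chr8:84978749-84978998, minus strand): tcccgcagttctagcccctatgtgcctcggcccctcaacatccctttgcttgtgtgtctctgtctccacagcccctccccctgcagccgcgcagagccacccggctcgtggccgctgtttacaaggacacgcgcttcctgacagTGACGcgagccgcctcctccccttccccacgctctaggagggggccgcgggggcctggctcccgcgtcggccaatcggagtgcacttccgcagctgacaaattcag
Jund (chr8:70697489-70697738, plus strand): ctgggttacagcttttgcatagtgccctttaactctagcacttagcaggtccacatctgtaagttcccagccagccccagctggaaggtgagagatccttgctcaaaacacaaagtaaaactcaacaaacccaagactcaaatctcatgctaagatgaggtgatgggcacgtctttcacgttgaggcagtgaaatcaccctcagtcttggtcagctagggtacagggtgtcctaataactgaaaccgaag
Promoter windows were searched for 8 of the 10 genes. Those of Fosl1 and Egr1 were not searched, although Egr1 was also higher in every dox library on plastic, so nothing is said of these 2 promoters. TGACG, searched on both strands and chosen after the sequences were read, occurred 2 times before Fos, starting 129 and 66 bases upstream, and once each before Fosb, Junb and Atf3. It was in 17.8% of 32851 mouse promoters of the same length. It was not in these windows of Fosl2, Jun, Jund and Ier3. The AP-1 element TGANTCA (6.75% of all promoters), the full element TGACGTCA (1.55%), the SMAD element GTCTAGAC (0.167%), its short form CAGAC (42.2%) and the CArG box bound by serum response factor (1.47%) matched none of the 8 windows. TGACG overlaps TGACGTCA, and such matches describe letters only. Bases outside these windows, farther upstream or past the start, were not searched, so a gene may hold any of these elements there.

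Fos, the founding partner of AP-1, was the 1 of 10 genes that was higher with dox by over 1 (log2) in every line on plastic. Untreated plastic libraries held 14.7, 37.5 and 17.9 FPKM for lines 560, 700 and 889, and the dox libraries of the same lines held 45.9, 156 and 58.4 FPKM. All 3 dox libraries were above all 3 untreated libraries. The ratio of dox to untreated was 3.12, 4.17 and 3.25, and the change on the log2(FPKM + 1) scale, used for every change below, was 1.58, 2.03 and 1.65 (mean 1.75 ± 0.24, SD, n = 3 pairs). Of all 12333 genes tested, 0.876% were over 1 higher in all 3 pairs. In limma the change was 1.75 ± 0.54 (SE, adjusted p = 0.499), and 1.75 ± 0.20 with the organoid line as a block (adjusted p = 0.108), so Fos did not pass the threshold in either fit. Without the untreated library of line 560 it was 1.49 (limma adjusted p = 0.519), and without both libraries of that line 1.84 (limma adjusted p = 0.296).

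In BME, Fos was at 221, 181 and 66.0 FPKM in untreated lines 682, 700 and 889. With dox, lines 700 and 889 held 171 and 86.9 FPKM, and the level was 249 FPKM in the mock library. The lines differed far more than the treatments, with the untreated libraries spanning 3.35-fold and the groups overlapping. The 2 same-line changes were −0.081 and 0.39, and the mock pair differed by 0.17. limma put the change at −0.39 without the line (adjusted p = 0.965) and at 0.15 with the line as a block (95% interval −0.27 to 0.58, adjusted p = 0.811). The difference between plastic and BME was 2.14 ± 0.86 (SE, limma interaction, adjusted p = 1.00) and 1.60 ± 0.26 with the block (limma adjusted p = 0.464).

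**Figure D1:**
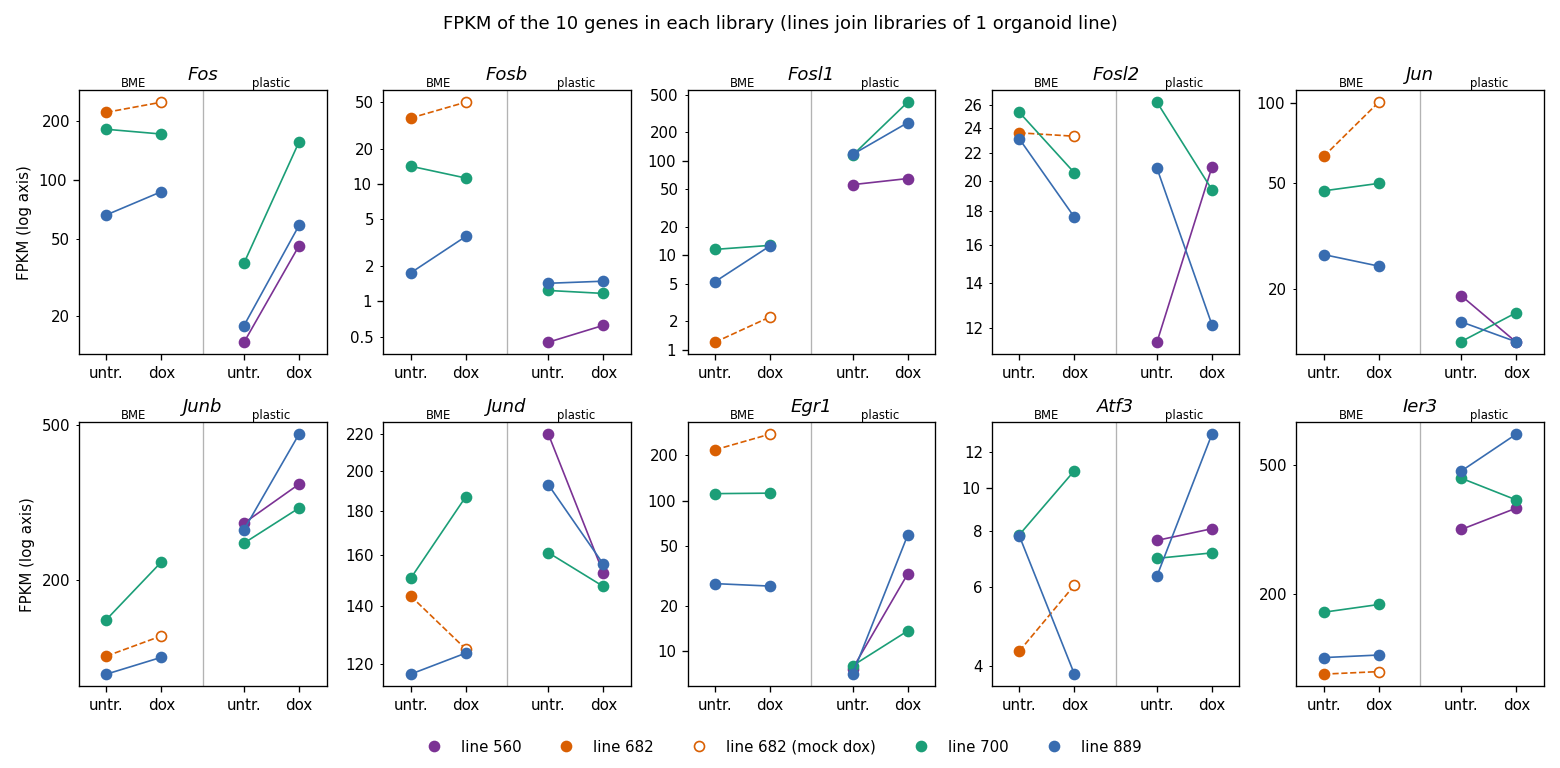
FPKM of each gene in each library on a log axis that differs by panel, untreated (untr.) and dox, in BME on the left and on plastic on the right. Lines join libraries of the same organoid line, the open circle is the mock dox library of line 682, and Fos and Egr1 on plastic show 3 lines that slope up, whereas in BME the lines are nearly level and far apart.

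Egr1, a zinc finger factor of the immediate early response that binds GC-rich sites, had nearly level untreated values on plastic, with 7.64, 7.99 and 7.02 FPKM for lines 560, 700 and 889. With dox these lines were at 32.5, 13.6 and 58.8 FPKM. No dox library overlapped the untreated ones, but the ratios were uneven at 4.26, 1.70 and 8.38. The change was 1.85 ± 0.49 (SE, limma adjusted p = 0.415), and with the block 1.85 ± 0.43 (limma adjusted p = 0.209). Line 700 had the smallest response, and without its dox library the change was 2.39 (limma adjusted p = 0.0552). Without the untreated library of line 560 it was 1.86 (limma adjusted p = 0.462).

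In BME the Egr1 level followed the line. The untreated libraries of lines 682, 700 and 889 were at 217, 111 and 28.0 FPKM, a 7.75-fold span. The dox libraries of lines 700 and 889 were at 112 and 27.0 FPKM, close to their partners, and the mock library was at 276 FPKM. Same-line changes were 0.011 and −0.053. limma gave −1.08 without the line as a term, with both line 682 libraries in the control arm, and −0.021 with the block (95% interval −0.42 to 0.38, adjusted p = 0.981). The interaction with the environment was 2.93 ± 1.19 (limma adjusted p = 1.00), and 1.87 ± 0.57 with the block (limma adjusted p = 0.877).

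Fosl1 encodes FRA-1, a FOS protein that lacks a strong transactivation domain and is known from invasive carcinoma cells. On plastic it was at 56.0, 115 and 117 FPKM untreated and 65.0, 419 and 254 FPKM with dox in lines 560, 700 and 889. Each dox library was above its own partner, but the groups overlapped, since line 560 with dox stayed below the untreated libraries of the other lines. The changes of 0.21, 1.86 and 1.11 gave 1.06 ± 0.70 (SE, limma adjusted p = 0.755), and 1.06 ± 0.35 with the block (limma adjusted p = 0.311). Leaving out both libraries of line 560 gave 1.48 ± 0.29 (limma adjusted p = 0.206), and leaving out its untreated library alone gave 0.71 (limma adjusted p = 0.774).

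In BME Fosl1 was low. Untreated lines 682, 700 and 889 were at 1.20, 11.6 and 5.26 FPKM, the dox libraries of lines 700 and 889 at 12.7 and 12.6 FPKM and the mock library at 2.23 FPKM. About 30 fragments stood behind the lowest value and about 328 behind the dox library of line 889. Both dox libraries were above all 4 controls, as in 6.33% of 12996 genes tested, although the line 700 pair differed by only 0.13 and the line 889 pair by 1.12. limma gave 1.49 ± 0.67 (adjusted p = 0.959), and 0.63 with the block (95% interval −0.18 to 1.43, adjusted p = 0.677).

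Junb and Jund, which encode partners of FOS, differed in direction on plastic. JUNB is induced early and can restrain growth, and JUND is the JUN protein most present in resting cells. Junb was at 280, 249 and 269 FPKM untreated and 353, 306 and 475 FPKM with dox in lines 560, 700 and 889, with no overlap. Jund was at 220, 161 and 193 FPKM untreated and 153, 147 and 156 FPKM with dox, again with no overlap. Fos, Egr1 and Junb were thus the 3 of 10 genes with every dox library above every control, against 7.87% of all genes, and Jund was the 1 of 10 below, against 7.26%. By pair, 5 of 10 genes were higher in all 3 lines (Fos, Egr1, Fosl1, Junb and Atf3), beside 18.6% of all genes, and Jund was the 1 of 10 lower in all 3, beside 18.7%. The changes were 0.48 ± 0.23 for Junb (limma adjusted p = 0.644) and −0.32 ± 0.19 for Jund (limma adjusted p = 0.736). With the block the SE were 0.24 and 0.21 (limma adjusted p = 0.462 and 0.576). Without the untreated library of line 560 the change of Jund was −0.21 (limma adjusted p = 0.669).

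In BME both genes were higher with dox in the 2 same-line pairs, and in the mock pair of line 682 Junb was at 0.17 and Jund at −0.20. So were Fosl1 and Ier3, making 4 of 10 genes beside 27.2% of all genes, and Fosl2 was the 1 of 10 lower in both pairs, beside 29.5%. Junb was at 127, 158 and 114 FPKM in untreated lines 682, 700 and 889, at 222 and 126 FPKM with dox in lines 700 and 889, and at 143 FPKM in the mock library. Jund was at 144, 151 and 117 FPKM untreated, 187 and 124 FPKM with dox and 125 FPKM in the mock library. The groups overlapped for both genes. The limma change with the block was 0.32 for Junb (95% interval −0.065 to 0.70) and 0.19 for Jund (95% interval −0.17 to 0.55).

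**Figure D2:**
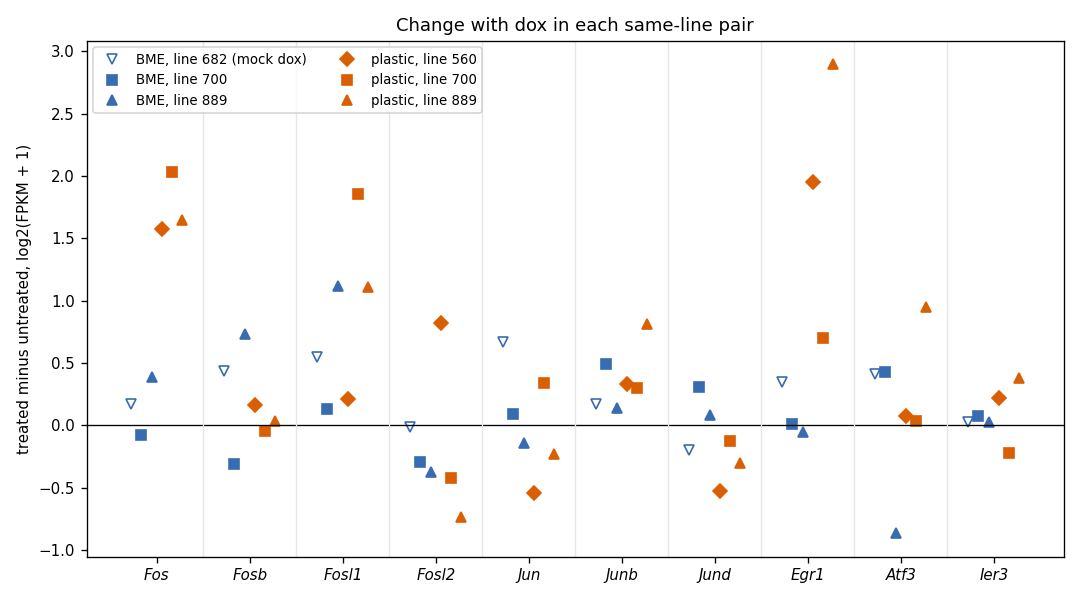
Change with dox, in log2(FPKM + 1), for each gene in each pair of libraries of 1 organoid line, in BME (blue; the open triangle is the mock dox library of line 682) and on plastic (orange). On plastic all 3 points lie above 0 for Fos, Fosl1, Junb, Egr1 and Atf3 and below 0 for Jund, and Fos has the 3 most tightly grouped large changes, from 1.58 to 2.03.

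The remaining genes showed no separation on plastic. Jun, the classic AP-1 partner of FOS and a target of JNK, was at 18.9, 12.7 and 15.1 FPKM untreated and 12.6, 16.3 and 12.7 FPKM with dox in lines 560, 700 and 889. Its change was −0.15 (95% interval −0.68 to 0.38, limma adjusted p = 0.909). Fosb, a FOS paralog with fast and transient induction, was lowest of the 10 at 0.449 to 1.43 FPKM untreated and 0.625 to 1.49 FPKM with dox, or about 34 to 108 fragments per library. Fosl2, which encodes FRA-2, was at 11.4, 26.3 and 20.9 FPKM untreated and 21.0, 19.4 and 12.1 FPKM with dox. Its pairs disagreed, with 0.82 in line 560 and −0.42 and −0.74 in lines 700 and 889. The change of Fosl2 was −0.11, and −0.44 without the untreated library of line 560 (limma adjusted p = 0.623).

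Atf3, a stress-induced bZIP factor that can pair with JUN, was at 7.62, 6.95 and 6.35 FPKM untreated on plastic and 8.09, 7.15 and 13.2 FPKM with dox. All 3 pairs were higher, by 0.077, 0.036 and 0.95, so the line 889 pair carried the change of 0.35 (limma adjusted p = 0.790). Ier3, an early gene known for its role in survival of stressed cells and in ERK signalling, was at 316, 455 and 479 FPKM untreated and 368, 390 and 622 FPKM with dox. It was higher in 2 of 3 pairs, with a change of 0.12 (95% interval −0.59 to 0.84, limma adjusted p = 0.950).

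In BME these 5 genes gave the following values. Jun was at 62.9, 46.8 and 27.0 FPKM in untreated lines 682, 700 and 889, at 49.9 and 24.4 FPKM with dox in lines 700 and 889, and at 101 FPKM in the mock library. Fosb was at 36.6, 14.2 and 1.75 FPKM untreated, 11.3 and 3.58 FPKM with dox and 50.0 FPKM in the mock library. The untreated libraries of Fosb spanned 20.9-fold, the widest of the 10 genes. Fosl2 was at 23.6, 25.3 and 23.1 FPKM untreated, the narrowest span at 1.10-fold, and at 20.5 and 17.6 FPKM with dox and 23.3 FPKM in the mock library. Both dox libraries of Fosl2 were below all 4 controls, as in 5.83% of genes. With the block its change was −0.33 ± 0.11 (limma unadjusted p = 0.0288, adjusted p = 0.671), and Fosl2 was the 1 of 10 with an unadjusted p under 0.05 in that fit, as were 7.41% of all genes. Atf3 ranged from 3.83 to 10.9 FPKM over the 6 libraries and its 2 dox pairs disagreed, at 0.43 and −0.86. Ier3 was at 113, 176 and 127 FPKM untreated, 186 and 130 FPKM with dox and 115 FPKM in the mock library, with same-line changes of 0.079 and 0.026.

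Across the 10 genes, limma called none in BME, on plastic or for the interaction, a call being an adjusted p below 0.05 with a change above 1 in either direction. Over all genes the same rule called 3 of 12996 in BME (0.0231%), 4 of 12333 on plastic (0.0324%) and 0 of 11977 for the interaction (0%). At an unadjusted p under 0.05 and a change over 1, plastic gave 2 of the 10, both higher (Fos and Egr1), beside 2.37% of all genes higher. With the block it gave 3 (Fos, Egr1 and Fosl1) beside 3.22%, and without the untreated library of line 560 it gave 1 (Egr1) beside 2.02%. limma-voom on the estimated fragments called 0 of 10 in both environments, with 2 on plastic (Fos and Egr1, beside 7.38% of all genes) and 2 in BME (Fosl1 and Fosl2, beside 3.97%) at an unadjusted p under 0.05. In BME the unadjusted rule gave 0 of 10, with 0.746% of all genes higher and 0.208% lower, but 1 (Fosl1, higher, beside 1.05% of all genes) without the untreated library of line 700 and 2 (Fosb and Egr1, lower, beside 0.929%) without that of line 889. The interaction gave 2 of 10, Fos and Egr1, beside 0.71% of all genes higher, the same 2 with the block, beside 1.27%, and 0 of 10 when lines 700 and 889 alone were used. It was also 0 without either line 682 library, without the BME dox library of line 889 and without the untreated plastic library of line 560 or 889. The median change of the 10 genes was 0.24 on plastic, beside 0.0088 over all genes, where 7 were higher and 3 lower. In BME it was −0.13 without the block, with 5 higher and 5 lower, and 0.10 with it, with 6 higher and 4 lower. Without the untreated library of line 560 the plastic median was 0.20, with 5 higher and 5 lower. By same-line pair, the median on plastic was 0.21, 0.17 and 0.60 in lines 560, 700 and 889. In BME it was 0.085 and 0.053 in the dox pairs of lines 700 and 889. The mock pair of line 682 had a median of 0.26, with 8 higher and 2 lower.

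**Figure D3:**
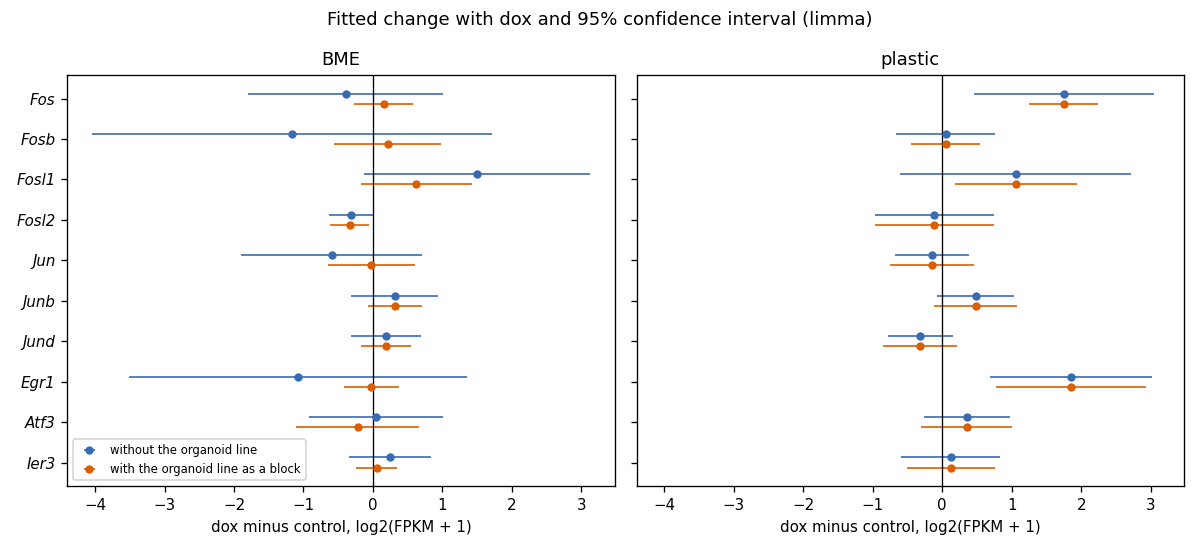
Dox minus control change of each gene in log2(FPKM + 1) from limma, with its 95% confidence interval, without the organoid line (blue) and with the line as a block (orange). On plastic the point estimates coincide and the intervals of Fos and Egr1 lie above 0 in both fits, whereas in BME the unblocked estimates of Fosb and Egr1 are −1.17 and −1.08 and the blocked ones 0.21 and −0.021.

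The make-up of the FOS family differed between the environments within each library. This share, the FPKM of a gene as a percentage of the summed FPKM of Fos, Fosb, Fosl1 and Fosl2, does not depend on how either table was scaled, and it was chosen after the values were seen, so no test was made. In all 6 BME libraries Fos was the largest member, with 68.7% to 79.3% of the sum, and Fosl1 had 0.425% to 10.4%. On plastic Fosl1 was the largest in all 6 libraries, with 49.1% to 77.9%, and Fos had 11.4% to 34.7%. The ratio of Fosl1 to Fos was 0.00543 to 0.145 in BME and 1.42 to 6.53 on plastic. With dox on plastic the share of Fos was higher in every line, at 34.7% against 17.8% in line 560, 26.2% against 20.8% in line 700 and 17.9% against 11.4% in line 889. The share of Fosl2 on plastic was 3.25% and 3.72% with dox in lines 700 and 889, beside 14.6% and 13.3% untreated, whereas line 560 had 15.8% with dox and 13.8% untreated.

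The JUN family differed between the environments as well. Jun had 8.89% to 27.3% of the summed FPKM of Jun, Junb and Jund in BME and 1.97% to 3.64% on plastic. Junb had 38.1% to 48.5% in BME and 53.9% to 73.7% on plastic. Within plastic, Junb took 68.1%, 65.2% and 73.7% with dox in lines 560, 700 and 889, against 53.9%, 58.9% and 56.4% untreated, and Jund took 29.5%, 31.4% and 24.3% against 42.4%, 38.1% and 40.4%. In BME the share of Jund with dox was 40.7% and 45.1% in lines 700 and 889, against 42.4% and 45.3% untreated. The share of Junb in these lines was 48.5% and 46.0% with dox, against 44.5% and 44.3% untreated. It was thus higher with dox in BME too, and in the mock pair of line 682 it was 38.9% against 38.1%.

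**Figure D4:**
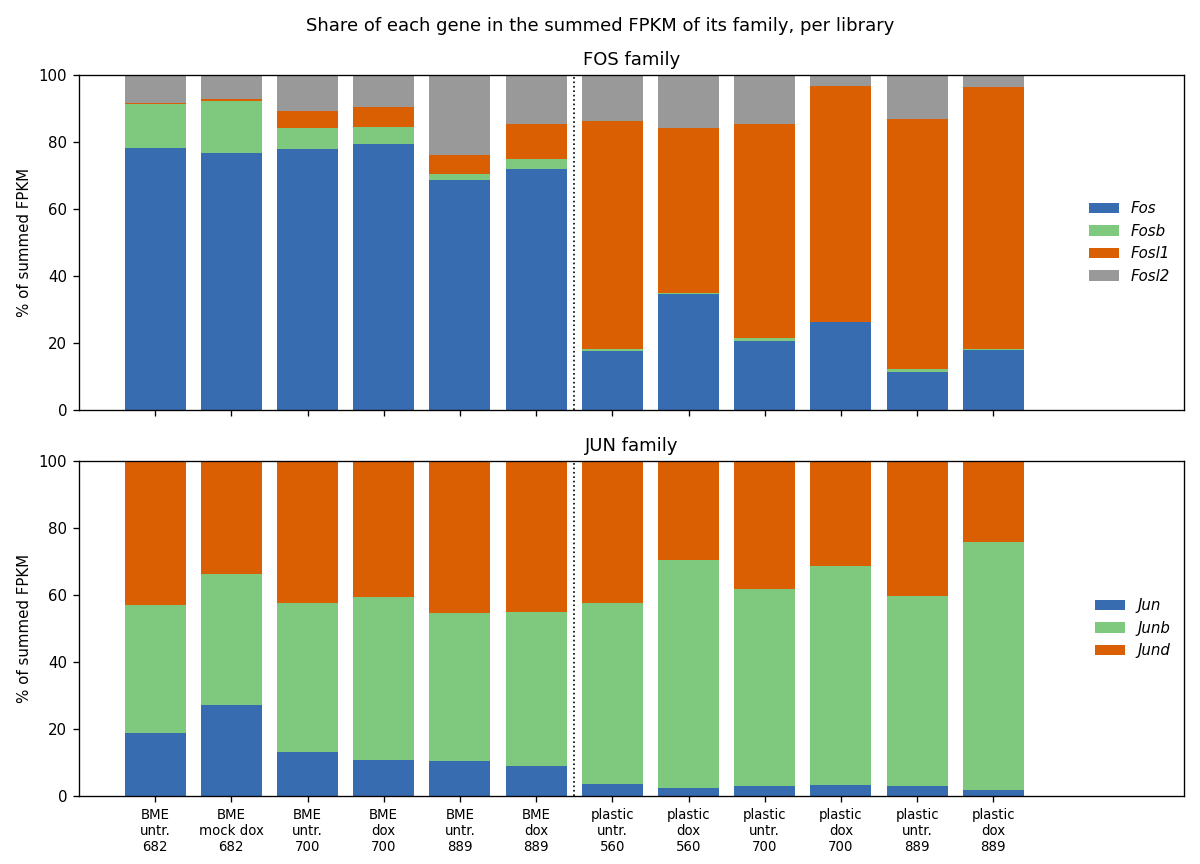
Percentage of the summed FPKM of the FOS family (top) and of the JUN family (bottom) taken by each gene in each library, with BME left and plastic right of the dotted line and the organoid line under each bar. Fos fills at least 68.7% of every BME bar and Fosl1 at least 49.1% of every plastic bar. The Junb part is larger with dox in each pair of both environments, the mock pair included.

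Levels in the 2 tables were normalized separately, so they are set side by side here and were not tested. For lines 700 and 889, untreated in both, Fosl1 was 11.6 and 5.26 FPKM in BME and 115 and 117 FPKM on plastic. Egr1 was 111 and 28.0 FPKM in BME and 7.99 and 7.02 FPKM on plastic. Fos was 181 and 66.0 FPKM in BME and 37.5 and 17.9 FPKM on plastic. In both lines Fos, Fosb, Egr1, Jun and Atf3 thus had lower untreated values in the plastic table, whereas Fosl1, Junb, Jund and Ier3 had higher ones (Ier3 by 2.59 and 3.76 times). With dox, Fos was 171 and 86.9 FPKM in BME and 156 and 58.4 FPKM on plastic. Egr1 with dox differed in order between the lines, at 112 FPKM in BME and 13.6 FPKM on plastic in line 700 and at 27.0 and 58.8 FPKM in line 889. Fosl2 was 25.3 and 23.1 FPKM in BME and 26.3 and 20.9 FPKM on plastic untreated, and with dox 20.5 and 17.6 FPKM against 19.4 and 12.1 FPKM.

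The order of the untreated levels differed as well. In BME the means were 156 ± 80.5 FPKM for Fos, 139 ± 32.8 for Ier3, 137 ± 17.8 for Jund, 133 ± 22.5 for Junb and 119 ± 94.8 for Egr1 (SD, n = 3), and these 5 neighbours overlapped in their spread. Below them came Jun at 45.5 ± 18.0, Fosl2 at 24.0 ± 1.17, Fosb at 17.5 ± 17.7 and Atf3 at 6.65 ± 2.02 FPKM, and Fosl1 was at 1.20 to 11.6 FPKM. Fosb overlapped each of these 4, and Egr1 overlapped Jun, Fosl2 and Fosb, whereas Fosl2 did not overlap Jun or Atf3. On plastic Ier3 led at 416 ± 87.8 FPKM, followed by Junb at 266 ± 15.9, Jund at 191 ± 29.6 and Fosl1 at 96.0 ± 34.7. These 4 did not overlap in mean ± SD, whereas Fos at 23.4 ± 12.3, Fosl2 at 19.5 ± 7.52 and Jun at 15.6 ± 3.12 FPKM did. Egr1 at 7.55 ± 0.490 and Atf3 at 6.97 ± 0.638 FPKM overlapped each other, and Fosb was lowest at 1.04 ± 0.519 FPKM.

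The genes most like 3 of the members were ranked by Pearson correlation of log2(FPKM + 1), centred within each table, over the 12 libraries, in which libraries of a line share their source. For Fos they included Klf10 (r = 0.946), Fbrsl1 (0.942), Slc35g2 (0.929) and Ccdc126 (0.928). For Egr1 they were Gpr146 (r = 0.920), Glul (0.908), Scarna3a (0.905), Hbp1 (0.904) and Col27a1 (0.888), and for Fosl1 Ppard (r = 0.958), Tmem37 (0.957), Stau1 (0.943), Fam214b (0.941) and Wsb2 (0.937). Klf10, itself an early gene of the TGFβ response, was at 5.36, 11.4 and 8.19 FPKM untreated on plastic and 14.5, 25.2 and 16.1 FPKM with dox in lines 560, 700 and 889. The same libraries gave the ranking, so these values are not separate from the likeness to Fos. Among the members, Fosb and Jun were the most alike (r = 0.872) and Fos and Egr1 had r = 0.655.

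Around the members, the other early genes differed in both directions on plastic. Of 29 listed, 25 were tested, 14 were higher and 11 lower, none was called by limma, and the median change was 0.13. At an unadjusted p under 0.05 and a change over 1, 3 were higher (beside 2.37% of all genes) and 2 lower (beside 1.27%), as they were with the block (beside 3.22% and 1.83%). Without the untreated library of line 560, 1 was higher (beside 2.02%) and 3 lower (beside 1.54%). Zfp36, which encodes an mRNA decay factor for AU-rich transcripts, was at 40.0, 41.9 and 32.1 FPKM untreated and 73.2, 195 and 180 FPKM with dox (change 1.83 ± 0.39, limma adjusted p = 0.304). Csrnp1 differed by 1.29 (limma adjusted p = 0.505). Klf10 was the third, at 1.09 (limma adjusted p = 0.491). Dusp1, a phosphatase that switches off MAP kinases, was at 39.9, 54.4 and 108 FPKM untreated and 14.8, 13.6 and 28.0 FPKM with dox (−1.73 ± 0.44, limma adjusted p = 0.390). Gadd45b differed by −1.08 (limma adjusted p = 0.318). The last 2 genes thus ran opposite to Fos and Egr1 in all 3 lines. In BME 9 of the 25 were higher and 16 lower, and 12 and 13 with the block, with none called.

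Known AP-1 target genes had the highest median on plastic of the lists other than the cell type markers. Of 17 listed, 14 were tested there, but Mmp9, Mmp10 and Mmp13 passed the filter through the dox libraries alone and could enter only as higher. The other 11 were also the 11 tested in BME, and on plastic 8 of them were higher and 3 lower, with a median change of 0.78, beside 0.0088 over all genes. The median was 0.80 without the untreated library of line 560. In BME 8 were higher and 3 lower with a median of 0.40, and 9 and 2 with a median of 0.17 with the block. None was called by limma. On plastic 3 of the 11 above (beside 2.37% of all genes) and 1 below (beside 1.27%) passed an unadjusted p of 0.05 with a change over 1, and with the block 4 (beside 3.22%) and 1 (beside 1.83%). Every dox library was above every control for 3 of the 11, beside 7.87% of all genes. The collagenase gene Mmp13 was at 0.0741, 0.544 and 0.0911 FPKM untreated and 2.87, 2.86 and 25.6 FPKM with dox. Lor differed by −1.41 (limma adjusted p = 0.358), with −0.50 in line 700 and −1.73 or lower in lines 560 and 889. Ccnd1, a G1 cyclin, differed by −0.70 (limma adjusted p = 0.811), which line 889 carried at −1.76, against −0.013 and −0.32 in lines 560 and 700.

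The routes to and from these genes were read in the same way. Of 18 upstream regulators, which include serum response factor, its partners and the MAP kinases, 17 were higher on plastic, with a median change of 0.30 and none called. Without the untreated library of line 560, 13 were higher and 5 lower with a median of 0.079. Map2k1, which encodes MEK1, was at 42.2, 59.6 and 51.9 FPKM untreated and 75.3, 99.4 and 105 FPKM with dox (0.85 ± 0.22, limma adjusted p = 0.415), and Elk3 differed by 0.60 and Mapk9 by 0.020. Of 11 ERK output genes 7 were higher and 4 lower, with Dusp5 at 1.44, Spry4 at 1.11, Dusp6 at −0.54 and Spry1 at −1.12 (limma adjusted p = 0.723, 0.304, 0.829 and 0.318). Of 13 other AP-1 family genes 8 were tested, 6 higher and 2 lower with a median of 0.17, and without the untreated library of line 560 4 were higher and 4 lower with a median of −0.018. Of the 8, 1 passed the filter through the untreated libraries alone. Maf was at 1.41, with −0.28 in line 700 against 1.08 and 3.43 in lines 560 and 889. Atf2 was at 0.35, with 0.96 in line 560 against −0.056 and 0.16 in lines 700 and 889, and Jdp2 was at −0.099. The 7 heat shock genes tested had a median of −0.082, with 3 higher and 4 lower, and of −0.30 without the untreated library of line 560, with 1 higher and 6 lower. Hspb1 was at 0.64, from line 700 alone (15.1 FPKM untreated and 58.3 FPKM with dox), being at most 0.0825 FPKM in the plastic libraries of lines 560 and 889. Dnajb1 was at 0.31, Hspa8 at −0.34 and Hspe1 at −0.54, and none of these lists had a called gene.

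**Figure D5:**
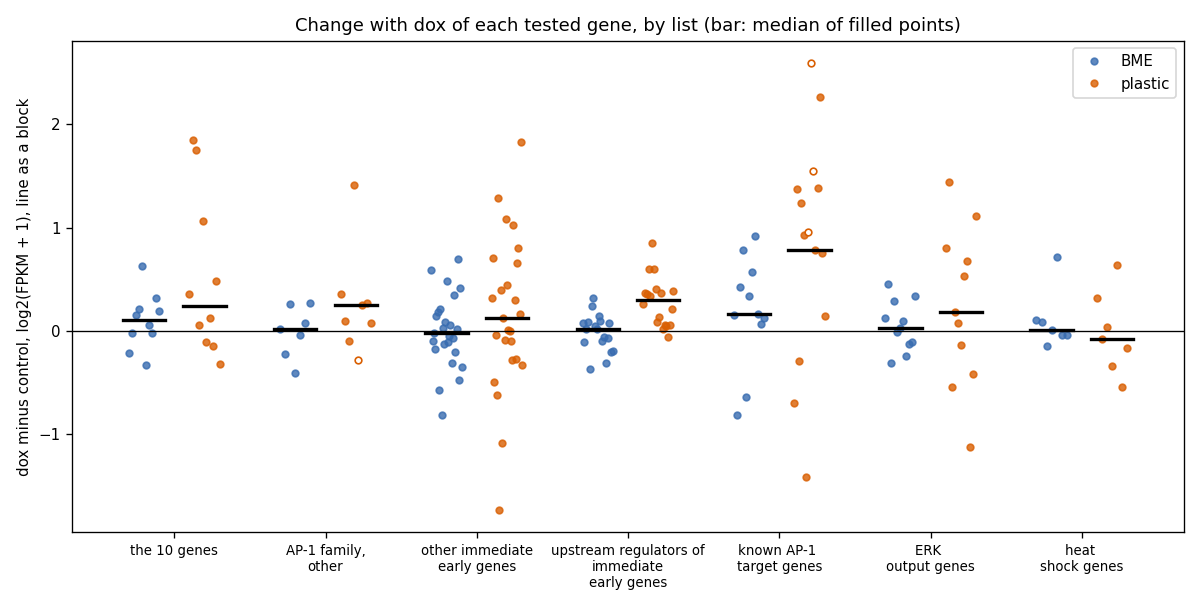
Dox minus control change in log2(FPKM + 1) of each tested gene, from limma with the organoid line as a block, grouped by list, in BME (blue) and on plastic (orange), with the median of the filled points as a black bar. Open points are genes that passed the filter on low values through the dox or the control libraries alone, which could lie on 1 side only and are left out of the median, and the known AP-1 target genes have a median of 0.78 on plastic and 0.17 in BME over the same 11 genes, whereas the other immediate early genes spread from −1.73 to 1.83 on plastic.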

How the data were processed

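RNA was sequenced in 12 libraries. Per the study's methods and the submitters' processing notes, the authors quantified reads with kallisto, compared groups with DESeq2 and used build mm9, with versions not given in the sources used here. The authors deposited FPKM, fragments divided by transcript length and scaled for library depth, as 1 table per environment. Their deposited comparison tables (fold changes and p-values) were not used. The 10 genes and the other gene lists were chosen with earlier results of these data known.

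Changes were computed as log2(FPKM + 1), which understates the change of low genes. A filter kept genes averaging 0.5 FPKM or more. They were tested two-sided with limma 3.58.1 in R 4.3.3 (lmFit, then eBayes with a trend), fitted over all genes of a table with Benjamini-Hochberg adjustment, without a block, since the study states none. A call needed an adjusted p below 0.05 and a change above 1 in either direction. The interaction was fitted over the 11977 genes that passed in both tables, environment being a term. Same-numbered libraries are of 1 organoid line, and their deviations from the group means correlated (r = 0.176 to 0.660), so a fit that blocks on the line is given beside the main one. In BME both line 682 libraries are controls, so the unblocked BME change also holds line differences. No label says that libraries of a group are separate cultures beyond the line. The unblocked p-values thus rest on the spread between lines, and in BME they count both line 682 controls separately. With the block, p-values rest on how far the change differs between lines. In BME the blocked ones also rest on the difference between the mock and untreated libraries of line 682.

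Named genes in the other lists are the 2 highest and 2 lowest plastic changes of each, with Klf10 named as the gene most like Fos, and some genes that this rule names are not reported here. Low FPKM values were near whole multiples of 1 fragment in 70.4% to 77.0% of cases per library (tolerance 0.1), so depth and fragment numbers are approximate. The limma code was tested on simulated data. Alternatives were a pseudocount of 0.1, no filter, the block, median-centred libraries, limma-voom on estimated fragments, the mock library counted with dox, and each library left out. Leaving out line 560 on plastic, the other pseudocount for the pair changes, and list counts without genes that passed the filter through dox alone were chosen after seeing the data.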

Additional observations from a re-analysis of the deposited data

Results flagged for a closer look

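Jund was higher with dox in both BME pairs (0.31 and 0.079 in lines 700 and 889) and lower in all 3 plastic pairs (−0.53, −0.13 and −0.30 in lines 560, 700 and 889), so these pairs lay on opposite sides of 0 in the 2 environments. The BME pair of line 682 with the mock library, counted among the controls, was at −0.20, on the side of the plastic pairs. The difference itself, plastic minus BME, was −0.50 on the log2(FPKM + 1) scale (unadjusted p = 0.0955, limma adjusted p = 1.00), and −0.51 with the organoid line as a block (unadjusted p = 0.0655, limma adjusted p = 0.920). It ranged from −0.80 to −0.21 when each library was left out in turn. No cause was tested.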

How the results depend on the processing

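None of the 10 genes was called under any alternative run. The number of all genes called in BME, 3 as reported, was 1 with a pseudocount of 0.1, 0 with the line as a block, 1 with limma-voom, 0 with the mock library counted with dox and 0 to 37 when each library was left out (37 without the dox library of line 700). On plastic, 4 as reported, it was 10 with a pseudocount of 0.1, 0 without the filter, 7 with the block, 0 with limma-voom, 0 without line 560 and 0 to 55 when each library was left out (55 without the dox library of line 700). For the interaction, 0 as reported, it was 5 without the filter. The cause of these differences was not tested, and the runs with a library left out also held fewer libraries.

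Signs turned only for changes that had not passed the test. In BME, with the block, Fos was 0.15, Fosb 0.21 and Atf3 −0.22. With the mock library counted with dox, Fos was 0.16, Fosb 0.29, Jun 0.21, Egr1 0.10 and Atf3 −0.00914. Atf3 was −0.0661 with limma-voom. On plastic without line 560, Fosb was −0.00553 and Jun 0.0525. For the interaction, the block gave Fosb −0.16, Fosl1 0.43, Jun −0.12 and Ier3 0.0722, and lines 700 and 889 alone gave Fosb −0.22, Fosl1 0.86, Fosl2 −0.25 and Ier3 0.0255.

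With each library left out, BME ranges were −0.88 to 0.0933 for Fos, −0.0923 to 0.72 for Junb, −0.11 to 0.48 for Jund, −0.60 to 0.70 for Atf3 and −0.0117 to 0.50 for Ier3. Plastic ranges were 1.23 to 2.14 for Fos, 1.37 to 2.39 for Egr1, 0.49 to 1.83 for Fosl1, −0.18 to 0.22 for Fosb, −0.44 to 0.13 for Fosl2 and −0.11 to 0.26 for Ier3. Interaction ranges were −0.998 to 0.34 for Fosl1, −0.13 to 0.44 for Fosl2, −0.0530 to 0.95 for Jun, −0.24 to 0.57 for Junb, −0.34 to 0.96 for Atf3 and −0.38 to 0.14 for Ier3. The block changed no other call. Fosb on plastic rests on about 34 to 108 fragments per library, which limits it.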
